A study of Mus musculus with 12 samples.

Results

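The 32 genes described here belong to the p53 pathway: p53 itself (Trp53), its regulators and genes known as its targets in DNA damage. They were taken from a fixed list and matched by gene symbol, and all 32 were found among the 50600 genes counted in each library. All 32 also passed the filter on low counts, so each was tested.

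The study injected mice of the strain Rosa26-LSL-dCas9-p300 into the tail vein when they were about 8 weeks old and took the livers 2 weeks later for sequencing of polyadenylated RNA. Its transgene encodes nuclease-dead Cas9 fused to p300, a histone acetyltransferase, and stays silent until Cre recombinase cuts out a stop cassette in front of it. Each group has 4 libraries: mice given 1e+12 viral genomes of adeno-associated virus (AAV.Cbh.gRNA) with a guide RNA targeting Pdx1 (Pdx1 gRNA), mice given the same dose of virus with a non-targeting guide (control gRNA), and mice given PBS with no virus. The transgene is shared by all 3 groups, and the source of Cre, and so which cells made dCas9-p300, is not given in the sources used here. Both virus groups differ from PBS in the virus, its dose and the guide together, which cannot be told apart. Whether PBS livers made dCas9-p300 is not known, so they may differ from virus livers in that too. Sample titles of the control gRNA and PBS groups end in "(2)" and those of the Pdx1 gRNA group do not; what the mark means is not stated, so anything it stands for cannot be told apart from the Pdx1 guide. Whether every library is its own mouse is not stated, and the spread behind each p-value is that between libraries, which may be technical.

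The p53 protein is a transcription factor that DNA damage and other stresses stabilise. It is held low by Mdm2, itself a p53 target, and its other targets halt the cell cycle, promote apoptosis, repair DNA or limit oxidative stress. In adult liver, whose hepatocytes rarely divide, Cdkn1a is a widely used readout of the pathway.

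Libraries held between 11824767 and 22008046 assigned counts. The targeted gene, Pdx1, was counted 26, 32, 54 and 256 times in the Pdx1 gRNA libraries, against 0, 0, 0 and 2 times in the control gRNA libraries and 0 in each PBS library. PBS libraries 2 and 3 held 1024 and 828 counts of the Y-linked gene Ddx3y and 33 and 43 counts of Xist. The other 10 libraries held at most 3 counts of Ddx3y and from 10696 to 24067 counts of Xist, which marks a difference of sex within PBS and between those PBS libraries and all virus libraries. For the members, and for the other lists and the genes named from them, values without PBS libraries 2 and 3 are given where that ended a call. Levels are CPM, that is counts brought to 1 common library size, on TMM-scaled library sizes, and "rose" or "fell" is used for genes with an edgeR adjusted p under 0.05 over all 15219 genes tested. In whole liver, a lower level cannot be told apart from fewer cells of the type that makes the RNA.

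Most members had a positive log2 fold change against PBS, 23 of 32 with Pdx1 gRNA and 25 of 32 with control gRNA, though fewer were called. In Pdx1 gRNA livers 14 members rose, 0 fell and 18 were not called against PBS (43.8% called), where 22.1% of all genes tested were called, 11.7% as higher and 10.4% as lower. At an unadjusted p under 0.05, 3 members were lower, and DESeq2 called 2 and limma-voom 0 as lower. In control gRNA livers 15 members rose, 2 fell and 15 were not called against PBS (53.1% called), where 32.1% of all genes tested were called, 16.3% as higher and 15.8% as lower. The median log2 fold change of the members was 0.37 for Pdx1 gRNA against PBS and 0.58 for control gRNA against PBS, beside medians of -0.06 and -0.01 over all genes tested. The 4 Pdx1 gRNA libraries were all above the 4 PBS libraries for 14 members, against a background of 12.7% of genes (21.4% separate in either direction). The 4 control gRNA libraries were all above PBS for 15 members, against 16.5% of genes (28.8% in either direction). Both comparisons use the same PBS libraries and are not independent. Without PBS libraries 2 and 3, 12 members rose in Pdx1 gRNA livers and 13 in control gRNA livers, with 1277 and 2258 calls over all genes in place of 3369 and 4887. Of the 16170 genes tested in that fit, 728 and 1118 were called higher. The filter let a gene pass on its virus libraries alone, and 5 members, Psrc1, Pmaip1, Phlda3, Tnfrsf10b and Eda2r, were below the filter's cutoff of 0.597 CPM, on total counts without TMM, in at least 1 PBS library. Among the other 27 members, 10 rose and 0 fell in Pdx1 gRNA livers, and 11 rose and 2 fell in control gRNA livers. The share called among all genes that meet the same PBS condition was not computed. The shares over all genes tested, given above, also cover genes that passed on virus libraries alone.

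**Figure D1:**
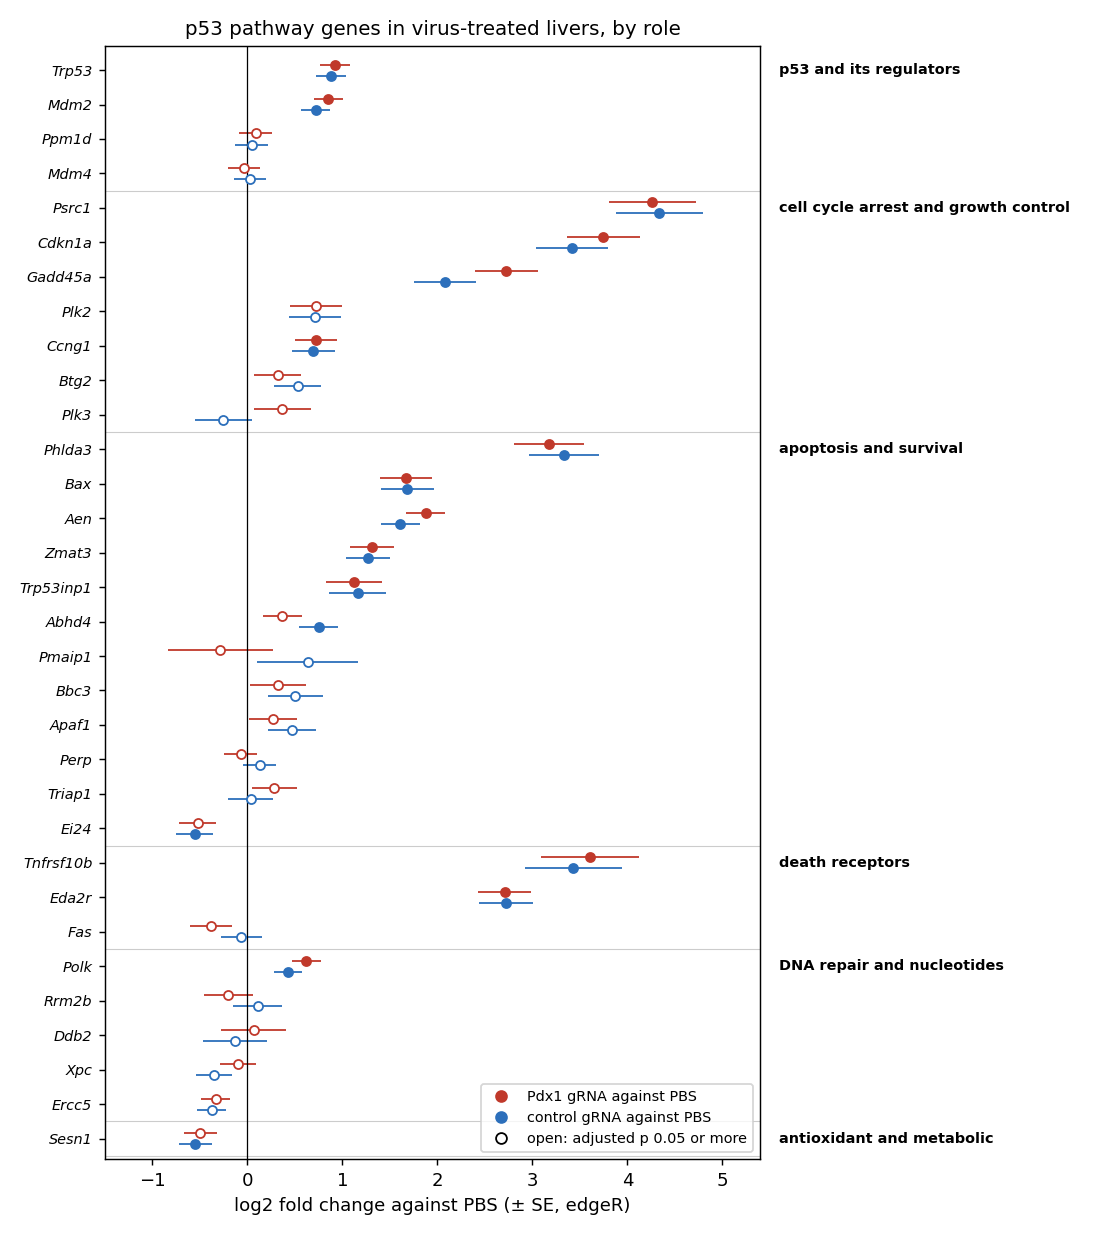
Log2 fold change against PBS (x axis, ± SE, edgeR) of each of the 32 members (y axis), grouped by role, for Pdx1 gRNA (red) and control gRNA (blue) livers; filled points have an adjusted p under 0.05. The largest values belong to Psrc1, Cdkn1a, Tnfrsf10b, Phlda3, Eda2r and Gadd45a. Of the DNA repair members only Polk has filled points, and the others lie between -0.38 (Ercc5) and 0.11 (Rrm2b), both with control gRNA.

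Of p53 and its 3 regulators, Trp53 and Mdm2 rose with both guides and Mdm4 and Ppm1d were not called. Trp53, on chromosome 11, had 50.8, 59.5, 56.9 and 58.7 CPM in Pdx1 gRNA libraries 1 to 4, 59.3, 48.3, 54.3 and 57.4 CPM in the control gRNA libraries and 41.1, 25.1, 25.2 and 27.8 CPM in the PBS libraries. Every virus library lay above every PBS library, and PBS library 1 stood above the other 3. The log2 fold change was 0.92 ± 0.16 (SE, n = 4 each) for Pdx1 gRNA against PBS (edgeR adjusted p = 0.00237) and 0.88 ± 0.16 for control gRNA over PBS (edgeR adjusted p = 0.00201). Mdm2, the ubiquitin ligase that marks p53 for degradation, had 75.5, 84.7, 67.9 and 98.5 CPM with Pdx1 gRNA, 79.6, 65.5, 79.9 and 72.9 CPM with control gRNA and 47.1, 55.3, 41.1 and 37.4 CPM with PBS. Again no virus library reached down to the PBS range, and Pdx1 gRNA library 4 was the highest. Mdm2 was 1.81-fold higher in Pdx1 gRNA livers (edgeR adjusted p = 0.00297) and 1.65-fold higher in control gRNA livers (edgeR adjusted p = 0.00463) than in PBS livers. Mdm4, the Mdm2 partner that blocks transactivation by p53, had 97.4, 82.8, 90.7 and 79.6 CPM with Pdx1 gRNA, 95.7, 90.3, 88.7 and 91.0 CPM with control gRNA and 126, 66.6, 80.8 and 85.5 CPM with PBS. Its 3 groups overlapped, with PBS libraries at both ends, and its log2 fold changes were -0.04 ± 0.17 and 0.02 ± 0.17 for Pdx1 gRNA and control gRNA over PBS (edgeR adjusted p = 0.898 and 0.928). Ppm1d, a phosphatase that turns off p53 and the checkpoint kinases, lay between 5.93 and 8.49 CPM over all 12 libraries.

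Of the 7 members that arrest the cell cycle or restrain growth, 4 rose with both guides: Cdkn1a, Psrc1, Gadd45a and Ccng1. Cdkn1a encodes p21, the inhibitor of cyclin-dependent kinases (chr17:29090979-29100722, mm10). It had 57.7, 93.0, 39.2 and 136 CPM in Pdx1 gRNA libraries 1 to 4, 83.4, 47.5, 77.5 and 51.5 CPM in the control gRNA libraries and 6.88, 5.31, 4.09 and 7.79 CPM in the PBS libraries. The lowest virus library was about 5 times the highest PBS library, while the virus libraries spread widely among themselves. Cdkn1a was 13.4-fold higher with Pdx1 gRNA (log2 fold change 3.75 ± 0.38, edgeR adjusted p = 0.00012) and 10.7-fold higher with control gRNA (3.42 ± 0.38, edgeR adjusted p = 0.00016) than with PBS.

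The members include known p53 targets, both among those that rose and among those that did not. For all members with an entry, the 250 bases upstream of each start in RefSeq (GRCm38.p6) were searched for a pair of p53 consensus half-sites. Each half-site has 10 bases, and the pair lies 0 to 13 bases apart. The half-site reads the same on both strands, so 1 search covers both. Of the 32 members, 24 had an entry, with 33 windows in all. In each window only the pair with the fewest mismatches, and then the shortest spacing, was kept. Cdkn1a had a pair with 0 mismatches, from base -73 to base -42 before the upstream of its 2 starts, which 0.0639% of all 32851 windows hold. The second half-site of that pair also pairs, with 1 mismatch, with the 10 bases directly after it. At the other start of Cdkn1a the best pair had 5 mismatches. Ccng1, Bax and Polk had a pair with 1 mismatch, so that 4 members had at most 1 mismatch, where 1.02% of all gene symbols have such a pair. With at most 2 mismatches it was 7 members, against 9.72% of symbols. Of the 4 genes, all rose with both guides, where 14 of all 32 members rose with Pdx1 gRNA and 15 with control gRNA. How many of all genes with such a pair rose was not computed. The control gRNA call of Polk held in 8 of 24 alternative analyses, and the Pdx1 gRNA call of Ccng1 in 15. Polk's window precedes a downstream start inside the gene. With 2 mismatches were Aen and Gadd45a, which rose with both guides, and Sesn1, which fell in control gRNA livers. Mdm2, Phlda3 and Eda2r also rose with both guides, and their best pairs had 4 mismatches. Those of Trp53 and Psrc1, which rose as well, had 3. Bbc3, Fas, Mdm4, Plk3 and Ppm1d, which were not called, also had 3, as did Ei24, which fell in control gRNA livers. Apaf1, Btg2, Ercc5 and Triap1, not called either, had 4. The match is a description of letters, and no binding was measured. The windows run 5′ to 3′ with the paired half-sites in capitals, at chr17:29090729-29090978 (plus strand) for Cdkn1a, chr11:40755287-40755536 (minus strand) for Ccng1, chr7:45466899-45467148 (minus strand) for Bax and chr13:96519188-96519437 (minus strand) for Polk.
Cdkn1a: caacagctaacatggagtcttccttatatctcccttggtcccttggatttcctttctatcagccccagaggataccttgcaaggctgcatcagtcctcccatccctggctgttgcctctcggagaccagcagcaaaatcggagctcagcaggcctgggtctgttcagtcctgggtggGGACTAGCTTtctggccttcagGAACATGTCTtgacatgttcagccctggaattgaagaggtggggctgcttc
Ccng1: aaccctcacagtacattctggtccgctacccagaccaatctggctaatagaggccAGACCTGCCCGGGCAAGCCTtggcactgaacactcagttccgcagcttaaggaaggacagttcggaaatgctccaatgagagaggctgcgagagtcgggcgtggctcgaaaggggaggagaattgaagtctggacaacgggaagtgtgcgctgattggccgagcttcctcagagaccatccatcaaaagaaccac
Bax: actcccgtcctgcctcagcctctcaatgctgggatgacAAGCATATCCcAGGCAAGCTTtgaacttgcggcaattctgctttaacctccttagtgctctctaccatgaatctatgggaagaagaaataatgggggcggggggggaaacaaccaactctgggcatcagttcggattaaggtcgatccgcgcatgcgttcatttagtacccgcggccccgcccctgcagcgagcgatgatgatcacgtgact
Polk: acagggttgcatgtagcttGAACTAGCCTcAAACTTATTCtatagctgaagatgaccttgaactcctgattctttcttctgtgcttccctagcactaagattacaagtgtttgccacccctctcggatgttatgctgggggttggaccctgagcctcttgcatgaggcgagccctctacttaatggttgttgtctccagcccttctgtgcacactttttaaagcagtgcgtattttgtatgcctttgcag

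Psrc1, a microtubule-binding protein of the mitotic spindle, had the largest fold change of the members. Its levels were 5.17, 6.55, 4.38 and 7.96 CPM with Pdx1 gRNA, 8.16, 3.75, 8.76 and 4.65 CPM with control gRNA and 0.299, 0.0949, 0.205 and 0.572 CPM with PBS. The PBS libraries held only 16 counts in all, against 404 in the Pdx1 gRNA libraries and 587 in the control gRNA libraries, and the groups were far apart. The fitted log2 fold change was 4.26 ± 0.46 for Pdx1 gRNA (edgeR adjusted p = 0.00016) and 4.34 ± 0.46 for control gRNA (edgeR adjusted p = 0.000128). Gadd45a, a growth arrest protein induced by DNA damage, had 45.3, 38.0, 54.4 and 29.3 CPM with Pdx1 gRNA, 24.9, 33.2, 20.8 and 27.7 CPM with control gRNA and 11.2, 3.13, 5.01 and 5.50 CPM with PBS. All virus libraries lay above PBS, and 3 of the 4 Pdx1 gRNA libraries lay above all control gRNA libraries, with library 4 inside their range. It was 6.62-fold higher with Pdx1 gRNA (edgeR adjusted p = 0.00037) and 4.23-fold higher with control gRNA (edgeR adjusted p = 0.000912) than with PBS. Strand was ignored in counting, and exons of the antisense gene E230016M11Rik cover 19.1% of Gadd45a exon bases, so reads there cannot be assigned to either gene by strand. That antisense gene itself had 105, 231 and 146 counts over the Pdx1 gRNA, control gRNA and PBS libraries.

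Ccng1, cyclin G1, whose protein recruits a phosphatase to Mdm2, had 61.0, 55.6, 52.2 and 83.3 CPM with Pdx1 gRNA, 67.8, 52.4, 69.0 and 58.5 CPM with control gRNA and 22.2, 44.3, 47.6 and 39.1 CPM with PBS. The groups did not overlap, though the lowest virus libraries came within 5 CPM of PBS library 3. Its rise of 0.72 ± 0.22 on the log2 scale with Pdx1 gRNA (edgeR adjusted p = 0.0354) and 0.70 ± 0.22 with control gRNA (edgeR adjusted p = 0.0304) was lost when any of several libraries was left out, with adjusted p up to 0.128 without Pdx1 gRNA library 4 and 0.0943 without control gRNA library 3. Plk2 and Plk3, polo-like kinases of the stress response, and Btg2, an antiproliferative protein, were not called against PBS with either guide. Plk2 averaged 27.9 ± 2.58 CPM with Pdx1 gRNA, 27.7 ± 7.04 CPM with control gRNA and 16.8 ± 7.54 CPM with PBS (SD, n = 4 each; edgeR adjusted p = 0.0751 and 0.0618 for Pdx1 gRNA and control gRNA against PBS). Plk2 passed the threshold with both guides without PBS library 4, its highest PBS library (edgeR adjusted p = 0.0109 and 0.00778). Btg2 averaged 16.1 ± 0.882, 18.6 ± 3.44 and 12.8 ± 5.33 CPM with Pdx1 gRNA, control gRNA and PBS, and Plk3 155 ± 45.8, 101 ± 32.6 and 120 ± 45.8 CPM. Without PBS library 1 Btg2 rose in control gRNA livers (log2 fold change 0.78, edgeR adjusted p = 0.0153), as it did on total counts (0.88, edgeR adjusted p = 0.0329).

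**Figure D2:**
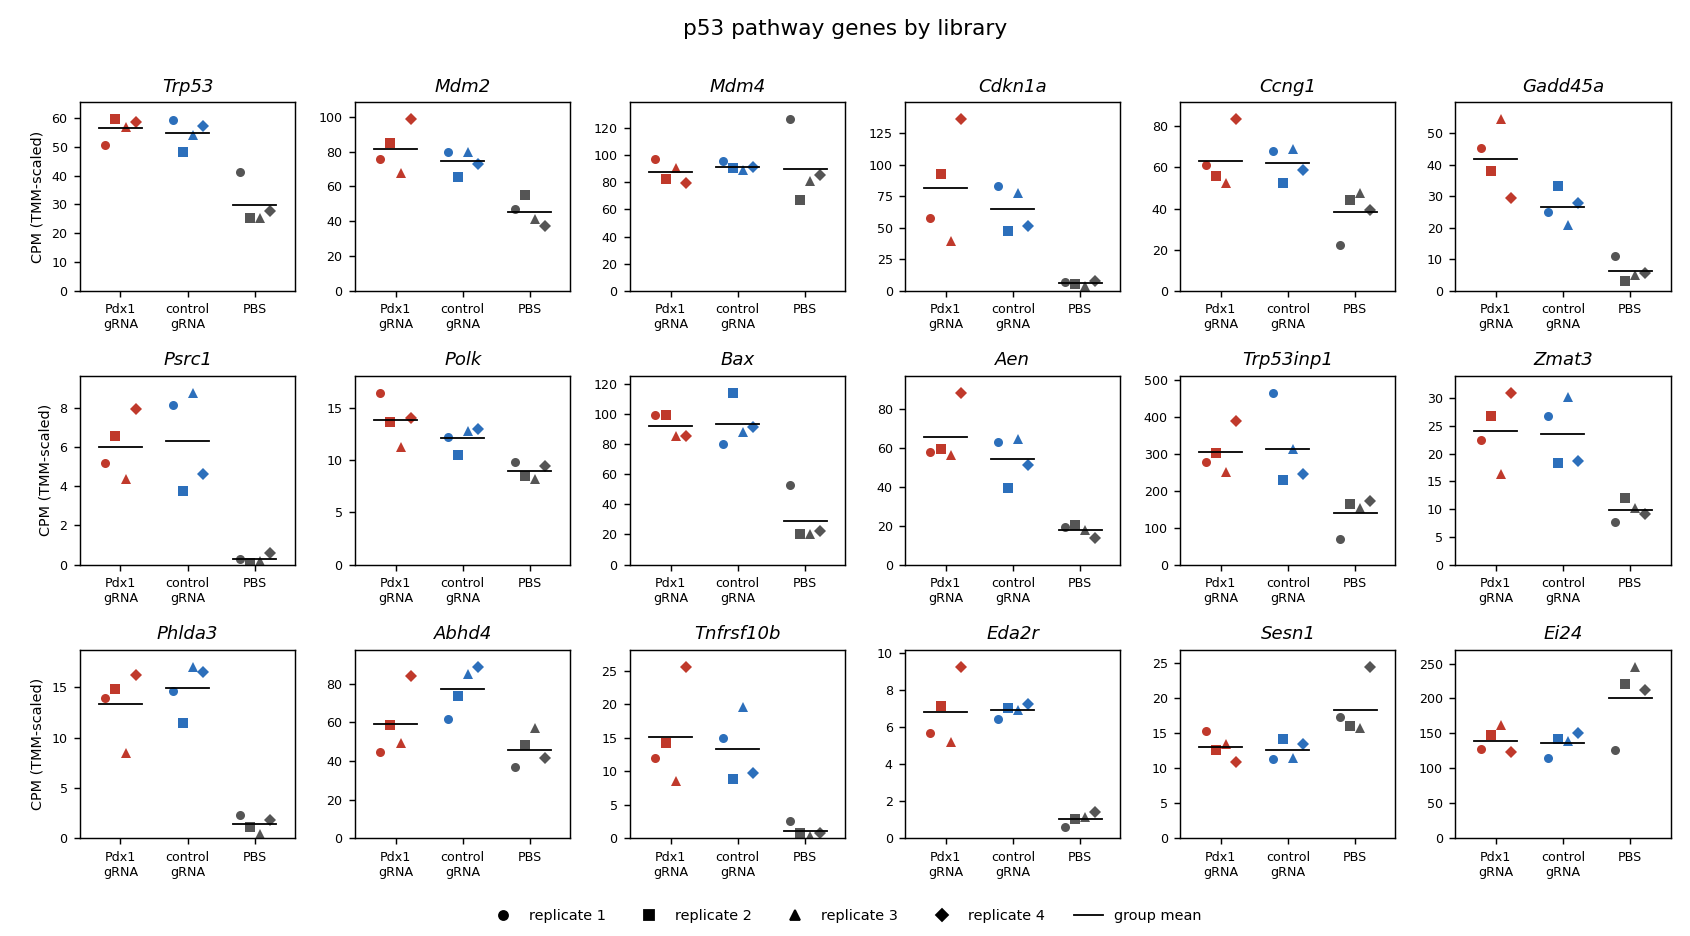
TMM-scaled CPM (y axis, linear, from 0) of 18 members in each library, by group (x axis: Pdx1 gRNA, control gRNA, PBS), with 1 marker shape per replicate number and a bar at the group mean. For Cdkn1a the 8 virus libraries lie between 39.2 and 136 CPM and the 4 PBS libraries between 4.09 and 7.79 CPM, while for Mdm4 the 3 groups overlap.

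Among 12 members that promote or restrain apoptosis, 5 rose in Pdx1 gRNA livers (Phlda3, Bax, Aen, Zmat3 and Trp53inp1), and those 5 and Abhd4 rose in control gRNA livers. Phlda3, which keeps the survival kinase Akt off the membrane, had 13.9, 14.9, 8.52 and 16.2 CPM with Pdx1 gRNA, 14.6, 11.5, 17.0 and 16.5 CPM with control gRNA and 2.33, 1.14, 0.409 and 1.79 CPM with PBS. The groups were well apart, with folds of 9.04 for Pdx1 gRNA (edgeR adjusted p = 0.000264) and 10.1 for control gRNA (edgeR adjusted p = 0.000162) over PBS. Bax, the effector that opens the outer mitochondrial membrane, had 99.7, 99.3, 85.2 and 85.7 CPM with Pdx1 gRNA, 80.5, 114, 88.1 and 91.8 CPM with control gRNA and 52.6, 20.4, 20.5 and 22.5 CPM with PBS. PBS library 1 was far above the other PBS libraries and still below every virus library. The log2 fold change of Bax was 1.67 ± 0.28 with Pdx1 gRNA (edgeR adjusted p = 0.00185) and 1.68 ± 0.28 with control gRNA (edgeR adjusted p = 0.00117). A predicted gene on the same strand, Gm45808, covers 12.2% of Bax exon bases, with at most 2 counts in any group.

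Aen, a nuclease that enhances apoptosis, had 57.7, 59.5, 56.5 and 88 CPM with Pdx1 gRNA, 63.0, 39.1, 64.6 and 51.1 CPM with control gRNA and 19.4, 20.2, 17.9 and 13.9 CPM with PBS. All PBS libraries were close together and below every virus library. Its log2 fold change was 1.88 ± 0.20 with Pdx1 gRNA (edgeR adjusted p = 0.000166) and 1.61 ± 0.20 with control gRNA (edgeR adjusted p = 0.000321). Zmat3, an RNA-binding zinc finger protein, had 22.4, 26.7, 16.4 and 30.9 CPM with Pdx1 gRNA, 26.7, 18.3, 30.2 and 18.6 CPM with control gRNA and 7.72, 12.1, 10.2 and 9.07 CPM with PBS. The virus libraries ranged about as widely within each guide as between the guides, and none overlapped PBS (log2 fold change 1.31 ± 0.23 and 1.27 ± 0.23 for Pdx1 gRNA and control gRNA, edgeR adjusted p = 0.00256 and 0.00198). Trp53inp1, a stress protein that works with p53 in apoptosis and autophagy, had 277, 302, 249 and 388 CPM with Pdx1 gRNA, 463, 230, 311 and 244 CPM with control gRNA and 68.9, 163, 154 and 173 CPM with PBS. No library overlapped, and the groups were 2.18-fold (Pdx1 gRNA, edgeR adjusted p = 0.0193) and 2.23-fold (control gRNA, edgeR adjusted p = 0.0116) above PBS. Without PBS libraries 2 and 3 these calls were lost, at log2 fold changes of 1.31 (Pdx1 gRNA, edgeR adjusted p = 0.0695) and 1.34 (control gRNA, edgeR adjusted p = 0.0516). Without Pdx1 gRNA library 4 the Pdx1 gRNA call was also lost (edgeR adjusted p = 0.0621).

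Abhd4, a lipid hydrolase linked to cell death after loss of attachment, had 44.8, 58.7, 49.4 and 84.0 CPM with Pdx1 gRNA, 61.8, 73.9, 85.2 and 88.7 CPM with control gRNA and 37.1, 48.4, 56.9 and 41.6 CPM with PBS. The Pdx1 gRNA libraries overlapped PBS and the control gRNA libraries did not. It rose in control gRNA livers (log2 fold change 0.75 ± 0.21, edgeR adjusted p = 0.0156; 0.0556 without control gRNA library 3). In Pdx1 gRNA livers the value was 0.37 ± 0.21 (edgeR adjusted p = 0.22), and the difference between the guides, -0.39 ± 0.21, was not called either (edgeR adjusted p = 0.83). Ei24, an endoplasmic reticulum protein, fell in control gRNA livers, where it ranged from 115 to 151 CPM, against 126 to 245 CPM in PBS livers. The groups overlapped through PBS library 1, and the call (log2 fold change -0.55 ± 0.20, edgeR adjusted p = 0.045) was lost without PBS libraries 2 and 3 (-0.33, edgeR adjusted p = 0.323) and held in 7 of 24 alternative analyses. On total counts the log2 fold change of Ei24 was -0.19 (edgeR adjusted p = 0.381). In Pdx1 gRNA livers Ei24 ranged from 123 to 162 CPM (log2 fold change -0.52 ± 0.20 against PBS, edgeR adjusted p = 0.072; 0.00265 without PBS library 1). Predicted gene Gm26787, on the other strand, covers 6.66% of its exon bases.

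Bbc3 and Pmaip1, small activators of Bax, Apaf1, the scaffold of the apoptosome, Perp, a desmosome protein that also takes part in apoptosis, and Triap1, a mitochondrial protein that restrains it, were not called with either guide. Their log2 fold changes against PBS lay between -0.29 and 0.32 for Pdx1 gRNA and between 0.03 and 0.64 for control gRNA. Bbc3 averaged 16.7 ± 2.49 CPM with Pdx1 gRNA, 18.9 ± 1.97 CPM with control gRNA and 13.3 ± 6.73 CPM with PBS, where PBS library 1 alone had 21.9 CPM. Without that library Bbc3 rose in control gRNA livers (log2 fold change 0.86, edgeR adjusted p = 0.0147). Pmaip1 was near its limit of detection, with 66, 158 and 61 counts in all over the Pdx1 gRNA, control gRNA and PBS libraries.

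Of the 3 members that are cell surface receptors of the TNF receptor family, Tnfrsf10b and Eda2r rose with both guides and Fas did not pass the test. Tnfrsf10b, the mouse death receptor for the ligand TRAIL, had 11.9, 14.1, 8.60 and 25.5 CPM with Pdx1 gRNA, 15, 8.86, 19.6 and 9.80 CPM with control gRNA and 2.63, 0.759, 0.409 and 0.857 CPM with PBS. PBS library 1 was the highest of its group and still well below the virus libraries. Folds over PBS were 12.2 for Pdx1 gRNA (edgeR adjusted p = 0.000898) and 10.8 for control gRNA (edgeR adjusted p = 0.000729). Eda2r, the X-linked receptor for an isoform of ectodysplasin, had 5.69, 7.14, 5.20 and 9.23 CPM with Pdx1 gRNA, 6.41, 7.03, 6.90 and 7.25 CPM with control gRNA and 0.599, 1.04, 1.13 and 1.43 CPM with PBS. The control gRNA libraries were within 1 CPM of each other, and the lowest virus library was over 3 times the highest PBS library. Its log2 fold change was 2.71 ± 0.28 for Pdx1 gRNA (edgeR adjusted p = 0.000139) and 2.72 ± 0.28 for control gRNA (edgeR adjusted p = 0.000121). Fas, the receptor for Fas ligand, had means of 13.9 ± 3.27 CPM with Pdx1 gRNA, 17.3 ± 4.18 CPM with control gRNA and 18 ± 3.14 CPM with PBS. Its log2 fold changes of -0.38 ± 0.22 and -0.06 ± 0.22 against PBS were not called (edgeR adjusted p = 0.224 and 0.856).

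Of the 5 DNA repair members, Polk was the only one called against PBS. Polk, a polymerase that copies past damaged bases, had 16.4, 13.7, 11.3 and 14.1 CPM with Pdx1 gRNA, 12.3, 10.5, 12.8 and 13 CPM with control gRNA and 9.88, 8.54, 8.19 and 9.5 CPM with PBS. No virus library reached the PBS range, but the lowest control gRNA library was within 1 CPM of it. The rise of 0.62 ± 0.15 on the log2 scale with Pdx1 gRNA (edgeR adjusted p = 0.0129) and of 0.43 ± 0.15 with control gRNA (edgeR adjusted p = 0.0459) was lost without PBS libraries 2 and 3 (0.51 and 0.30, edgeR adjusted p = 0.117 and 0.288). Over 24 alternative analyses the Polk call held in 22 for Pdx1 gRNA and in 8 for control gRNA. Ddb2 and Xpc, which find damage in nucleotide excision repair, Ercc5, which cuts beside it, and Rrm2b, a subunit of ribonucleotide reductase, had log2 fold changes between -0.34 and 0.07 for Pdx1 gRNA and between -0.38 and 0.11 for control gRNA against PBS. Ercc5 averaged 22.3 ± 2.62 CPM with Pdx1 gRNA, 21.7 ± 2.11 CPM with control gRNA and 28.1 ± 5.32 CPM with PBS (edgeR adjusted p = 0.129 and 0.0721 against PBS). In control gRNA livers Ercc5 was called lower by DESeq2 (DESeq2 Wald test adjusted p = 0.0398). Without PBS library 2 or without Pdx1 gRNA library 4 edgeR called it lower there too (edgeR adjusted p = 0.0436 and 0.0489). Xpc averaged 26.6 ± 4.79, 22.3 ± 2.80 and 28.5 ± 6.52 CPM, and without PBS library 1 it fell in control gRNA livers (edgeR adjusted p = 0.0184). Acp2, on the other strand, covers 23.8% of Ddb2 exon bases.

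Sesn1, a sestrin that limits oxidative stress and growth signalling, was lower in every virus library than in every PBS library. It had 15.2, 12.5, 13.4 and 10.9 CPM with Pdx1 gRNA, 11.3, 14.1, 11.4 and 13.4 CPM with control gRNA and 17.2, 15.9, 15.7 and 24.4 CPM with PBS. The groups lay close, with Pdx1 gRNA library 1 within 1 CPM of PBS library 3, and PBS library 4 stood highest. Genes whose Pdx1 gRNA libraries were all below PBS made up 8.74% of those tested, and the same for control gRNA 12.3%. Sesn1 fell in control gRNA livers (log2 fold change -0.55 ± 0.17, edgeR adjusted p = 0.0284), and in Pdx1 gRNA livers it missed the threshold (-0.50 ± 0.17, edgeR adjusted p = 0.0562). The call was lost without PBS library 4 (-0.38, edgeR adjusted p = 0.0863) and on total counts without TMM (-0.20, edgeR adjusted p = 0.402).

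The order of the members' levels differed between virus and PBS livers. Per kilobase of exon, mean Cdkn1a was 36.6 CPM per kb in Pdx1 gRNA livers, 29.2 in control gRNA livers and 2.71 in PBS livers, which placed it at rank 5, 5 and 21 of the 32 members. Gadd45a stood at rank 7 and 9 in the virus groups and at rank 19 in PBS, with 23.7, 15.1 and 3.52 CPM per kb. Perp, Plk3 and Ei24, which were not called with Pdx1 gRNA, held the top 3 ranks in PBS livers at 54.6, 47.6 and 41.3 CPM per kb. The lowest in PBS livers were Psrc1 at 0.087 and Eda2r at 0.178 CPM per kb.

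No member was called between the guides. Between Pdx1 gRNA and control gRNA livers 0 members were called by edgeR, DESeq2 or limma-voom, and 0 had an unadjusted p under 0.05, where edgeR called 0% of all genes. The targeted gene Pdx1 was therefore not called by edgeR either, although its counts separated the guides. The lack of a call here does not show that the guides had equal effects. For 0 members did the 4 libraries of each guide separate, against 6.65% of all genes tested (3.48% higher and 3.17% lower with Pdx1 gRNA). The median log2 fold change of the members was 0.03, and it was below 0 with upper-quartile scaling (-0.03) and on total counts (-0.05). The smallest p belonged to Gadd45a, with 41.7 ± 10.7 CPM in Pdx1 gRNA livers and 26.7 ± 5.21 CPM in control gRNA livers (log2 fold change 0.65 ± 0.31, edgeR adjusted p = 0.809). Plk3 followed at 0.62 ± 0.30 (edgeR adjusted p = 0.809), and Pmaip1 had the most negative value, -0.92 ± 0.53 (edgeR adjusted p = 0.838). The SE of these differences, 0.15 for Mdm2, 0.33 for Cdkn1a and 0.43 for Tnfrsf10b, sets what 4 libraries per group could show.

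Within the 8 virus libraries the level of Cdkn1a ranged from 39.2 to 136 CPM, and several members followed it. Of 19 relations with log2 CPM of Cdkn1a (14 members that rose in control gRNA livers and 5 summed gene lists), 12 of the 14 members had a positive Pearson r and 7 an adjusted p under 0.05 (exact permutation over all orders of the 8 libraries, two-sided, Benjamini-Hochberg over 19). The relation with Cdkn1a was not computed over all genes tested, so these counts have no background share beside them. Whether they are particular to p53 pathway genes was not tested. Mdm2 had r = 0.97 (exact permutation p = 0.000248, adjusted 0.00471) and Spearman rho = 0.95 (exact permutation p = 0.00114, adjusted 0.0217). Without Pdx1 gRNA libraries 3 and 4, the lowest and highest in Cdkn1a, r for Mdm2 was 0.93, and with each guide's mean removed it was 0.98. Zmat3 and Tnfrsf10b each had r = 0.93 (exact permutation adjusted p = 0.00817) and rho = 0.90 (adjusted 0.0289), and r = 0.91 and 0.83 without those libraries. These 3 were the members whose rho also passed the adjustment.

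Psrc1, Ccng1, Aen and Trp53inp1 had r = 0.84, 0.82, 0.79 and 0.78 (exact permutation adjusted p = 0.0468, 0.0468, 0.0468 and 0.0499), but their adjusted p for rho lay between 0.0584 and 0.109. For Ccng1 r was 0.48 without the extreme libraries, so that relation rests on them. Gadd45a and Bax went the other way, with r = -0.48 and -0.33, neither past the test (exact permutation adjusted p = 0.329 and 0.511). With each guide's mean removed, r for Gadd45a was -0.94, given without a test. The summed genes of the integrated stress response had r = 0.82 with Cdkn1a (exact permutation adjusted p = 0.0468) and an adjusted p of 0.0584 for rho, while the summed cell cycle, hepatocyte, T and NK cell, and macrophage lists had r = 0.21, -0.53, 0.07 and 0.23. All values of 1 library share its RNA, depth and scaling factor. On CPM from total counts, added after seeing the data, Trp53, Phlda3 and Eda2r also passed for r and Bax had r = 0.29.

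**Figure D3:**
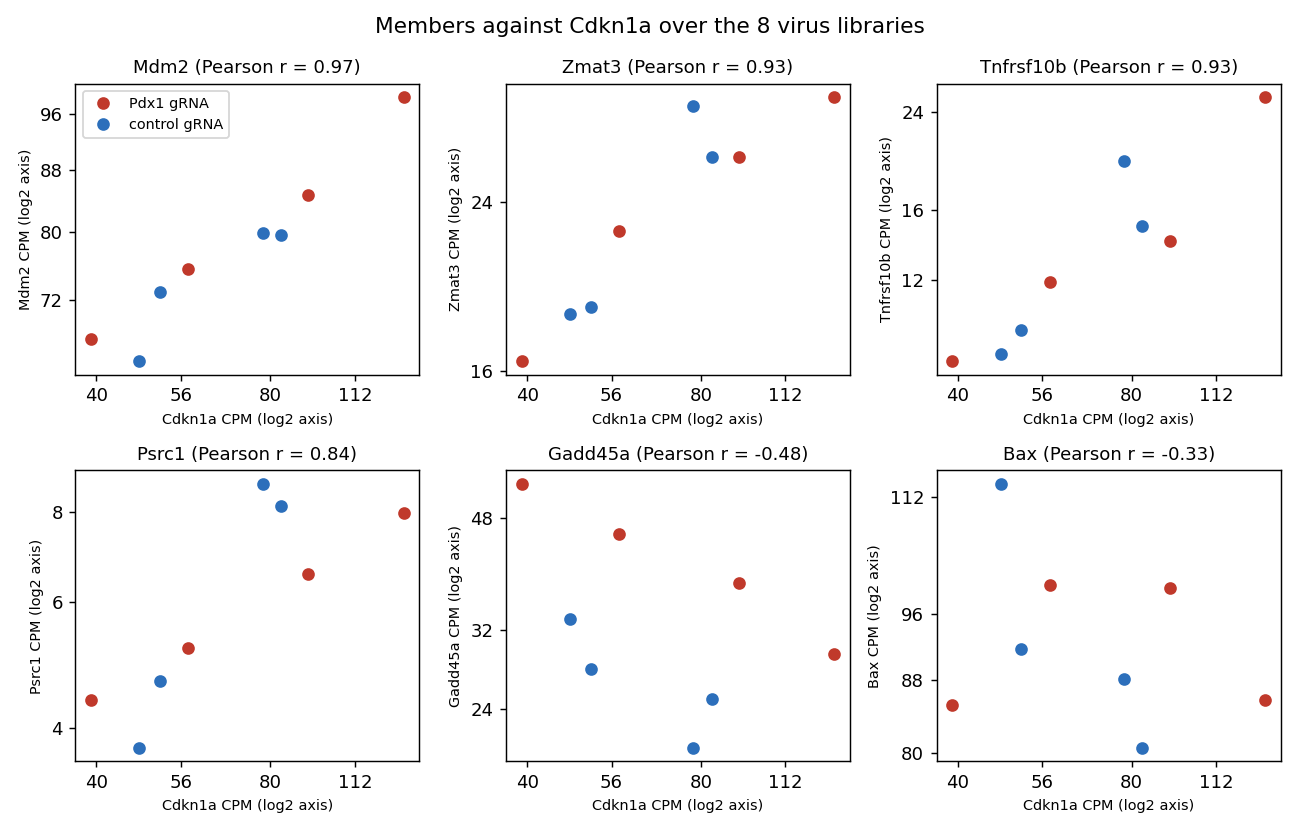
CPM of 6 members (y axes, log2 scale) against CPM of Cdkn1a (x axes, log2 scale) in the 4 Pdx1 gRNA (red) and 4 control gRNA (blue) libraries, 1 point per library. Mdm2, Zmat3 and Tnfrsf10b rise with Cdkn1a (r = 0.97, 0.93 and 0.93), and Gadd45a and Bax do not (r = -0.48 and -0.33).

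Another list held 28 further p53 targets. Of these, 23 were tested (Trp53cor1, Spata18, Ptprv, Trp73 and Rprm had too few counts), and 10 rose and 1 fell in Pdx1 gRNA livers, and 9 rose and 0 fell in control gRNA livers, with medians of 0.46 and 0.50. Of these, 47.8% and 39.1% were called, beside 22.1% and 32.1% of all genes. With PBS libraries 2 and 3 left out, 5 of 24 rose in Pdx1 gRNA livers and 3 of 24 in control gRNA livers, beside 728 and 1118 of all 16170 genes. Dyrk3, a kinase, averaged 10.5 ± 5.10 CPM with Pdx1 gRNA, 9.57 ± 2.79 CPM with control gRNA and 1.96 ± 0.645 CPM with PBS (edgeR adjusted p = 0.00157 and 0.00136 against PBS). Gtse1 and Ckap2, proteins of the dividing cell's microtubules, rose by 1.73 ± 0.28 and 2.54 ± 0.58 with Pdx1 gRNA and by 1.66 ± 0.28 and 2.50 ± 0.58 with control gRNA on the log2 scale. Rps27l, a ribosomal protein paralogue, averaged 206 ± 25.3, 233 ± 43.1 and 136 ± 34.5 CPM with Pdx1 gRNA, control gRNA and PBS (edgeR adjusted p = 0.0469 and 0.0116). Without PBS libraries 2 and 3 the calls of Ckap2 (edgeR adjusted p = 0.0635 and 0.0532) and Rps27l (0.165 and 0.0739) were lost with both guides.

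Upstream regulators of p53 were mixed. Of 20 tested, 6 rose and 3 fell with Pdx1 gRNA, and 4 rose and 3 fell with control gRNA (median log2 fold change 0.32 and 0.25). This was 45% and 35% of them, the control gRNA share near the 32.1% of all genes called in control gRNA livers. Without PBS libraries 2 and 3, 2 rose and 1 fell with Pdx1 gRNA, and 2 rose and 2 fell with control gRNA. Over all 16170 genes then tested, 728 rose and 549 fell with Pdx1 gRNA, and 1118 rose and 1140 fell with control gRNA. Rpl11, a ribosomal protein that can bind Mdm2, averaged 439 ± 24.5 CPM with Pdx1 gRNA, 482 ± 57.6 CPM with control gRNA and 245 ± 22.4 CPM with PBS (edgeR adjusted p = 0.00262 and 0.000851). Atm, the kinase activated by double-strand breaks, fell to 6.90 ± 1.51 CPM with Pdx1 gRNA and 5.85 ± 0.828 CPM with control gRNA, against 15.2 ± 4.81 CPM with PBS (edgeR adjusted p = 0.00699 and 0.00184; 0.0511 and 0.0194 without PBS libraries 2 and 3). Hipk2, a kinase of p53, fell to 17.6 ± 2.51 and 18.4 ± 6.04 CPM in Pdx1 gRNA and control gRNA livers, against 53.1 ± 19.8 CPM in PBS livers (edgeR adjusted p = 0.00327 and 0.00259).

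Of 47 DNA repair genes outside the members, 8 rose and 1 fell with Pdx1 gRNA, and 6 rose and 3 fell with control gRNA, 19.1% called in each, below the share of all genes called in control gRNA livers and near it in Pdx1 gRNA livers. H2afx, the histone phosphorylated at breaks, averaged 23.8 ± 0.983 CPM with Pdx1 gRNA, 26.3 ± 1.18 CPM with control gRNA and 13.9 ± 2.47 CPM with PBS (edgeR adjusted p = 0.00214 and 0.000641). Lig1, the ligase of replication, and Fanca, of crosslink repair, rose by 1.28 ± 0.36 and 1.03 ± 0.30 on the log2 scale with Pdx1 gRNA and by 1.37 ± 0.36 and 1.09 ± 0.30 with control gRNA. Both lost their calls without PBS libraries 2 and 3 (edgeR adjusted p between 0.0942 and 0.185), where 3 repair genes rose and 0 fell with Pdx1 gRNA and 2 rose and 1 fell with control gRNA. Among all 16170 genes in that fit, 728 rose and 549 fell with Pdx1 gRNA, and 1118 rose and 1140 fell with control gRNA.

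Cell cycle genes that p53 is known to repress through p21 and the DREAM complex were higher, not lower, in virus livers. Of 24 tested, 20 rose and 0 fell with Pdx1 gRNA, where the other 4 were higher at an unadjusted p under 0.05, and 23 rose and 0 fell with control gRNA. The shares called were 83.3% and 95.8%, beside 22.1% and 32.1% of all genes. The median log2 fold changes of these cell cycle genes were 1.84 and 2.07. The medians without PBS libraries 2 and 3 were 1.45 and 1.60, and 6 genes rose with Pdx1 gRNA and 12 with control gRNA. That fit called fewer genes of any kind, with 728 and 1118 of all 16170 genes tested called higher. Cdk1, the mitotic kinase, averaged 9.12 ± 1.65 CPM with Pdx1 gRNA, 12.3 ± 3.36 CPM with control gRNA and 1.86 ± 1.29 CPM with PBS (edgeR adjusted p = 0.00239 and 0.000708). Mcm2, of the replicative helicase, averaged 18.5 ± 4.0, 14.0 ± 2.41 and 4.76 ± 2.08 CPM, and Aurkb and Birc5, of the chromosomal passenger complex, rose by 2.52 ± 0.52 and 1.90 ± 0.40 on the log2 scale with Pdx1 gRNA and by 3.06 ± 0.52 and 2.19 ± 0.40 with control gRNA. Aurkb lost its Pdx1 gRNA call without PBS libraries 2 and 3 (edgeR adjusted p = 0.0606). Cdkn1a and the genes its product restrains were both higher in these livers. Which cells made each RNA was not measured.

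Genes of the integrated stress response, the program of the transcription factor Atf4, showed 10 of 16 higher and 1 lower with either guide, with median log2 fold changes of 1.34 for Pdx1 gRNA and 1.66 for control gRNA. This was 68.8% called with either guide, beside 22.1% of all genes with Pdx1 gRNA and 32.1% with control gRNA. When PBS libraries 2 and 3 were left out, 6 rose with Pdx1 gRNA and 7 with control gRNA, and 1 fell with either guide. All 16170 genes tested then gave 728 and 1118 higher calls. Trib3, a pseudokinase target of Atf4, averaged 224 ± 21.2 CPM with Pdx1 gRNA, 157 ± 36.9 CPM with control gRNA and 11.4 ± 2.48 CPM with PBS (edgeR adjusted p = 3.54e-07 and 1.33e-06). Ddit3, which encodes CHOP, averaged 232 ± 29.7, 178 ± 37.1 and 14.4 ± 4.25 CPM (edgeR adjusted p = 1.9e-06 and 4.52e-06). Nupr1, a stress-induced chromatin protein, had 434 ± 138 CPM with Pdx1 gRNA, 380 ± 212 CPM with control gRNA and 3.90 ± 2.02 CPM with PBS. Chac1, a glutathione-degrading enzyme and Atf4 target, fell by 2.48 ± 0.34 on the log2 scale with Pdx1 gRNA and by 3.13 ± 0.35 with control gRNA. The part of this response in the members' levels was not tested.

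**Figure D4:**
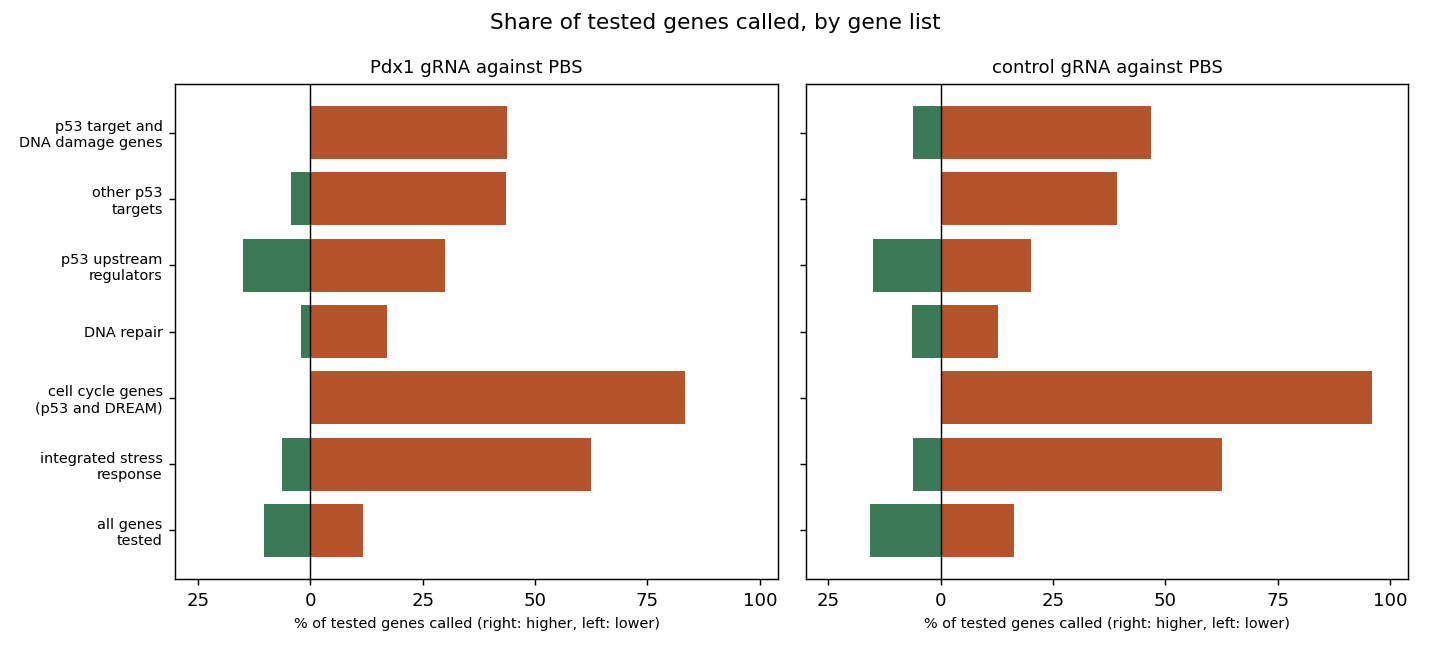
Percent of tested genes called by edgeR (x axis, higher to the right of 0 and lower to the left) in the 32 members, 5 other pathway lists and all genes tested (y axis), for Pdx1 gRNA against PBS (left panel) and control gRNA against PBS (right panel). The members lie above all genes on the higher side with both guides, and the cell cycle list has the highest share of calls, 83.3% with Pdx1 gRNA and 95.8% with control gRNA.

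Cell type markers were read in the same contrasts. Of all genes tested, 11.7% were called higher and 10.4% lower with Pdx1 gRNA, and 16.3% and 15.8% with control gRNA. With control gRNA, T and NK cell markers (18.2% called) and neutrophil markers (20%) were near the higher share. Stellate cell and fibroblast markers (12.5%) were near the lower share. Of 9 hepatocyte markers matched (of 10 listed), 3 fell with Pdx1 gRNA and 7 with control gRNA, and their summed level ranged from 51453 to 106371 CPM with Pdx1 gRNA, from 53380 to 72416 CPM with control gRNA and from 90197 to 129358 CPM with PBS. T and NK cell markers summed to between 5.28 and 16.9 CPM with Pdx1 gRNA, between 15.3 and 26.8 CPM with control gRNA and between 7.40 and 15.9 CPM with PBS, with 0 and 2 of 11 called higher. Macrophage and monocyte markers summed to 206 to 537 CPM with Pdx1 gRNA, 278 to 855 CPM with control gRNA and 158 to 637 CPM with PBS, with 0 and 4 of 12 called higher. Neutrophil markers summed to 10.3 to 53.2, 33.5 to 182 and 8.70 to 32.4 CPM with Pdx1 gRNA, control gRNA and PBS (0 and 1 of 5 called higher), and cholangiocyte markers to 46.1 to 103, 58.9 to 406 and 24.4 to 69.9 CPM (0 and 3 of 5 called higher). Endothelial markers summed to 77.6 to 152, 92.2 to 180 and 151 to 424 CPM (4 and 3 of 7 called lower), and erythroid markers to 79.6 to 178, 54.6 to 210 and 322 to 448 CPM (1 and 3 of 5 called lower). B and plasma cell markers (18.8 to 34.2, 18.3 to 50.01 and 9.59 to 35.1 CPM, with 0 of 7 called with either guide) overlapped between groups. Stellate cell and fibroblast markers summed to 166.7 to 337.0, 264.0 to 858.6 and 337.3 to 489.5 CPM (0 and 1 of 8 called lower). The highest Pdx1 gRNA library lay just under the lowest PBS library, and the control gRNA libraries overlapped PBS. Taken singly, 0 of these 8 markers had all Pdx1 gRNA libraries below PBS, where 8.74% of all genes did. Without PBS libraries 2 and 3, 0 hepatocyte markers fell with Pdx1 gRNA and 2 with control gRNA, and 0 immune or cholangiocyte markers were called higher. Endothelial markers then fell in 2 and 1 cases, erythroid in 0 and 3, and 1 neutrophil and 1 stellate cell marker fell with Pdx1 gRNA. Over all 16170 genes that fit called 728 higher and 549 lower with Pdx1 gRNA, and 1118 higher and 1140 lower with control gRNA. No marker of any list had 0 counts over all 12 libraries. Their part in the members' changes was not tested.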

How the data were processed

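Liver RNA of 12 libraries was analysed. The deposited values were raw fragment counts per gene, which the authors obtained, per the file headers, by running featureCounts 1.4.6-p4 without strand, both ends mapped, exons summed by gene (GENCODE M13, mm10). The submitters' processing notes list Trimmomatic 0.32 and STAR 2.4.1a. No normalization had been applied. Symbols came from a later GENCODE release (50376 of 50600 IDs matched). Genes were filtered with filterByExpr (minimum count 10), scaled by TMM and fitted over all 12 libraries with edgeR 4.0.16 in R 4.3.3 (quasi-likelihood, robust, two-sided, Benjamini-Hochberg). Alternatives used DESeq2 1.42.0, limma-voom (limma 3.58.1), other scalings and filters, fewer libraries, a replicate block and an indicator for PBS libraries 2 and 3. The other lists were refitted without those 2 libraries, an alternative added after seeing the data. Spreads cover 4 libraries. No library was a copy of another (chi-square of 19.3 or more per degree of freedom in every pair).

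The members and lists were chosen with earlier results of these data known. Per-library values are given for Trp53, Mdm2, Mdm4, Cdkn1a and the 16 called members of smallest p, and up to 4 genes of each other pathway list by smallest p in control gRNA against PBS. Some of these genes are not reported here. No set test was run. Promoter windows are from RefSeq, and a missing entry was not replaced.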

Additional observations from a re-analysis of the deposited data

Results flagged for a closer look

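Of 96 sets of 4 libraries (32 members in 3 groups), 5 held a library far from the other 3, where chance gives about 1 in 20. PBS library 1 was such a library for 3 members: Trp53 (41.1 CPM, the next at 27.8), Bax (52.6 CPM, the next at 22.5) and Plk3 (188 CPM, the next at 107). Bbc3 stood out in control gRNA library 2 (21.9 CPM, the next at 18.2). Aen stood out in Pdx1 gRNA library 4 (88 CPM, the next at 59.5), the library with the most Pdx1 counts, 256. The cause of these differences was not tested.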

How the results depend on the processing

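The count of members that rose ranged over all alternatives from 12 to 16 for Pdx1 gRNA against PBS (reported 14) and from 12 to 19 for control gRNA against PBS (reported 15), and no member's direction reversed among called values. The lower calls were less stable. For control gRNA, in place of 2, the count was 0 with upper-quartile scaling, total counts or no filter, and 1 with limma-voom, the replicate block, without PBS libraries 2 and 3, or fitted on the 8 libraries compared. It was 3 with the DESeq2 test, and leaving out 1 library gave 0 to 3. For Pdx1 gRNA, where the reported count was 0, it was 1 with DESeq2 size factors, a filter of at least 1 CPM or the indicator for PBS libraries 2 and 3, and 2 with the DESeq2 test; leaving out 1 library gave 0 to 2. The members' median log2 fold change for control gRNA against PBS was 0.92 on total counts, 0.36 without PBS libraries 2 and 3 and 0.39 with their indicator (reported 0.58; 0.45 to 0.63 leaving out 1 library). For Pdx1 gRNA it was 0.64 on total counts (reported 0.37; 0.36 to 0.62 leaving out 1 library, highest without PBS library 1). Total counts moved the median of all genes to 0.34 for control gRNA and 0.22 for Pdx1 gRNA, and made 80.6% and 81.3% of calls higher, in place of 50.9% and 53%; upper-quartile scaling made it 61.8% for control gRNA. Calls over all genes for control gRNA against PBS were 2258 without PBS libraries 2 and 3 and 2785 with their indicator (reported 4887; 3445 to 6875 leaving out 1 library). For Pdx1 gRNA against PBS they were 1277, 1795 and, on the 8 libraries compared, 2017 (reported 3369; 2132 without Pdx1 gRNA library 4 to 5421 without PBS library 1). Between the guides, the DESeq2 test called 14 genes and the fit on 8 libraries 1 (reported 0; 0 to 1 leaving out 1 library); 0 were members. The cause of these changes was not tested. Same-numbered libraries did not pair: 2 of 12 pairs correlated above 0.1 (range -0.49 to 0.23) and 1 of 12 libraries correlated best with its own number. The replicate block left 13 and 14 members higher for Pdx1 gRNA and control gRNA, Ccng1 (edgeR adjusted p = 0.0593, Pdx1 gRNA), Polk (0.0639) and Sesn1 (0.0606, both control gRNA) losing their call. Precision is limited by 4 libraries per group and, for Psrc1 and Pmaip1, by low counts.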
